A study of Mus musculus with 2 samples.

Results

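The Hox genes of the mouse were examined in 2 libraries of total RNA from the hippocampus, a forebrain structure. Members were all protein-coding genes named Hoxa, Hoxb, Hoxc or Hoxd followed directly by a number, which gave 39 of 55536 annotated genes and of 22028 protein-coding genes. The name rule used no measured value. It gave the same 39 genes whether a gene was called protein-coding by its own annotated type or by its having a protein-coding transcript, and it left out 4 Hox-named non-coding genes (Hoxd3os1, Hoxa11os, Hoxb5os and Hoxb3os). The members comprised 11 Hoxa, 10 Hoxb, 9 Hoxc and 9 Hoxd genes.

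Both libraries came from female B6CASTF1/J mice, the hybrid of C57BL/6J and CAST/EiJ parents, at 36 days of age, with 300 ng of RNA and external spike-in RNAs in each. They formed 1 group, numbered as biological replicates 1 and 2, with no treatment and no second condition, so the values are levels and no test between conditions was made. Each library had its own biosample label, but both carried 1 shared donor identifier, which leaves unstated whether different mice were used. SDs describe the spread between these libraries, which may be technical.

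Hox genes encode homeodomain transcription factors and lie in 4 clusters. Within a cluster their order along the chromosome follows the order of their expression domains from the hindbrain to the tail, and together they give hindbrain segments, spinal cord and trunk their position along the body axis. The forebrain normally lies in front of these domains. Outside them the clusters are held silent by Polycomb group complexes, whose histone marks trithorax group enzymes oppose, and Hox proteins bind DNA together with cofactors of the TALE homeodomain class.

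On build mm10 the Hoxa genes spanned 105 kb of the minus strand of chromosome 6, from 52155590 to 52260880. The Hoxb genes spanned 174 kb of the plus strand of chromosome 11, from 96194316 to 96368256. The Hoxc genes spanned 116 kb of the plus strand of chromosome 15, from 102921103 to 103036852, and the Hoxd genes 96.8 kb of the plus strand of chromosome 2, from 74668310 to 74765142.

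A pair of Hoxd promoters from opposite ends of that cluster is shown because they belong to the member with the most reads in the first of the authors' quantifications, Hoxd1, and to a member with none in any of them, Hoxd13. Hoxd1 is the 3′-most gene of the cluster and Hoxd13, needed for digit formation, the 5′-most. The windows run from 250 bases before to 50 bases after the RefSeq start (GRCm38.p6), at chr2:74762730-74763029 for Hoxd1 and at chr2:74667975-74668274 for Hoxd13, both on the plus strand. Capitals mark CG dinucleotides, the sites of DNA methylation and of binding by CG-recognising chromatin proteins.
Hoxd1: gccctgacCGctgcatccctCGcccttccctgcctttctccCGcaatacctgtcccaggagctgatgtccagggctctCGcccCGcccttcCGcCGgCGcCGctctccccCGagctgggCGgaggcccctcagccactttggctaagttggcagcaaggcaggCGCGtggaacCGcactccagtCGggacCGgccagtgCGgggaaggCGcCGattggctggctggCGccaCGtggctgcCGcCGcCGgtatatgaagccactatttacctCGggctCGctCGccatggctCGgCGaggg
Hoxd13: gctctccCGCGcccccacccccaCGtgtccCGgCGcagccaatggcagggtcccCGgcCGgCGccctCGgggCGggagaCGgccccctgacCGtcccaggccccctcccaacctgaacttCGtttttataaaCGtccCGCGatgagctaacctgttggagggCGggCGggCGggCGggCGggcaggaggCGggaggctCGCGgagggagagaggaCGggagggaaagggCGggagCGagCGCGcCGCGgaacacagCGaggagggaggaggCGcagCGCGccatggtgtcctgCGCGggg
The Hoxd1 window held 29 CG dinucleotides at a GC content of 69.7%, and the Hoxd13 window held 37 at 74.3%. Both were CG-dense, although Hoxd13 had no read in either library.

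The RefSeq promoter table held 22 of the 39 members, with 24 promoters of 300 bases. Of the Hoxb and Hoxc clusters it held only Hoxb1, Hoxb4, Hoxb8 and Hoxc4, so the values describe mainly Hoxa and Hoxd promoters. Hox promoters held a median of 14.5 CG dinucleotides, with an interquartile range of 9 to 22.75 and extremes of 4 and 45. All protein-coding genes in the table had a median of 14, over 20150 promoters, and the protein-coding genes without an expected count in either library, unread Hox genes included, had a median of 2, over 3439 promoters. At least 20 CG dinucleotides were present in 45.8% of the Hox promoters, in 37.2% of all protein-coding promoters and in 2.18% of the promoters of genes without reads. Hox promoters were thus spread over the range of all genes, while most promoters of unread genes lay at its low end, and the most CG-dense was that of Hoxa13, a gene of distal limb and genital tract, with 45. The sequence TATAAA, searched on both strands and sharing no letters with CG, was found in 4 of 24 Hox promoters (16.7%), in 12.1% of all protein-coding promoters and in 29.5% of those of unread genes.

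**Figure D1:**
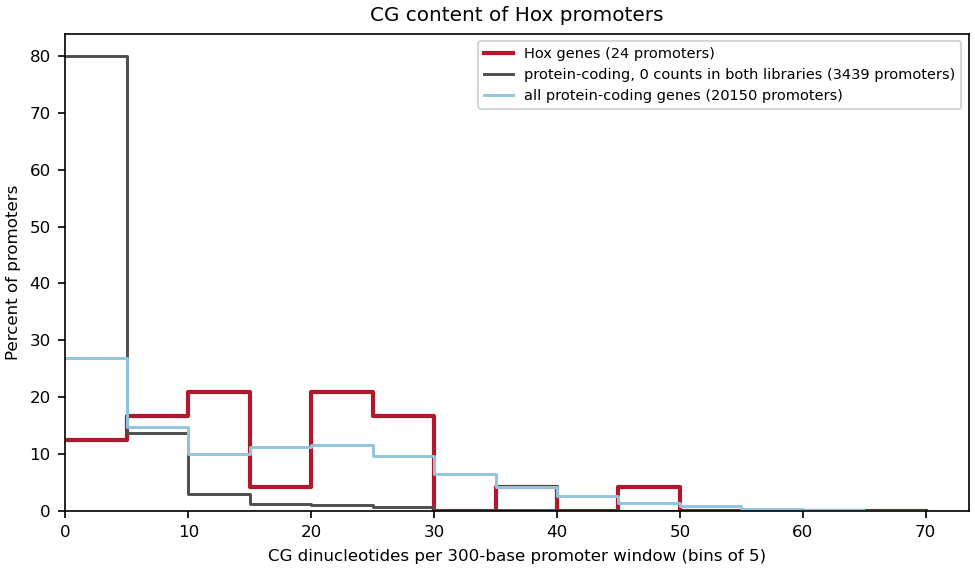
CG dinucleotides per 300-base promoter window (horizontal axis, bins of 5) against the percent of promoters in each bin (vertical axis), for 24 Hox promoters (red), 3439 promoters of protein-coding genes with 0 counts in both libraries (black) and 20150 promoters of all protein-coding genes (light blue). The unread genes crowd into the lowest bin, with a median of 2, while the Hox promoters extend to 45.

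The libraries held 32443497 (replicate 1) and 30125183 (replicate 2) expected counts in total, with the spike-ins. Expected counts are the read numbers given by the authors' quantification after alignment to the transcriptome, here called the first quantification, and TPM (transcript abundance) scales them to RNA length and library. Neuron and glia markers listed for the labelled tissue were present: all 9 genes were detected, at median levels of 568 and 492 TPM in replicates 1 and 2. Whether the list sets the hippocampus apart from other brain regions was not tested. Among the 9 genes Camk2a, a kinase of excitatory synapses, had 1303 and 1180 TPM, the vesicle fusion gene Snap25 851 and 725 TPM, and the astrocyte glutamate transporter gene Slc1a2 669 and 642 TPM. The lowest of that list were the microglial receptor gene Csf1r at 27.1 and 31.5 TPM and Prox1, a dentate granule neuron gene, at 37.8 and 42.0 TPM.

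Hox genes were almost unread. In the first quantification 30 of the 39 members (76.9%) had 0 counts in both libraries, against 21.3% of all protein-coding genes. None of the 39 reached 1 TPM in both libraries, a level that 57.6% of protein-coding genes reached. The 9 members with any read held 11 counts in replicate 1 (95% exact Poisson interval 5.49 to 19.7) and 5 in replicate 2 (1.62 to 11.7), all of them whole numbers within 0.005. These intervals overlap, and here as elsewhere intervals and floors cover counting error only. In bulk tissue, few cells with the RNA and little RNA per cell cannot be told apart.

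Summed over the members, the level was 0.341 CPM (counts scaled to library size) in replicate 1 and 0.167 CPM in replicate 2, with a mean of 0.254 ± 0.123 (SD, n = 2). In TPM the sums were 0.26 and 0.11, with a mean of 0.185 ± 0.106 (SD, n = 2). In this quantification all Hox genes together therefore stayed under the 1 TPM used here to call a single gene detected. A count of 0 was taken to allow up to 3 counts, a lower bound than the 3.69 counts of the exact interval used for summed counts. These 3 counts were 0.0929 CPM in replicate 1 and 0.09996 CPM in replicate 2. For single members that floor corresponded to between 0.0517 and 0.165 TPM in replicate 1 and between 0.0528 and 0.183 TPM in replicate 2, so a member without a read may have had a level up to these values.

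Hoxd1, a gene that in the mouse also acts in nociceptive sensory neurons, had 4 counts in replicate 1 and 1 in replicate 2, or 0.10 and 0.03 TPM. It was the only member read in both libraries. The 95% exact Poisson intervals, 1.09 to 10.2 counts and 0.0253 to 5.57 counts, overlapped, so a difference between the libraries was not detectable at this depth.

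In the other members with reads, these lay in 1 library each. Hoxc9, which sets thoracic motor neuron identity in the spinal cord, and Hoxc13, a gene of hair and nail, had 2 counts each in replicate 1 and 0 in replicate 2. Hoxa7 and Hoxb7, paralogs that pattern the trunk skeleton, and Hoxb4, a gene of the neck region also studied in blood stem cells, had 1 count each in replicate 1 and 0 in replicate 2. Hoxd8, a gene of the trunk, had 0 counts in replicate 1 and 2 in replicate 2, and Hoxd4, whose domain reaches into the hindbrain, had 0 and 1. Levels of these members were between 0.02 and 0.04 TPM in the library with the reads, so each level rested on 1 or 2 reads and no order among them could be drawn.

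By cluster, 9 of 11 Hoxa genes, 8 of 10 Hoxb genes, 7 of 9 Hoxc genes and 6 of 9 Hoxd genes were at 0 in both libraries. The summed counts in replicates 1 and 2 were 2 and 0 for Hoxb, 4 and 0 for Hoxc, and 4 and 4 for Hoxd. By position within the clusters, 6 of 8 members of paralog groups 1 to 3, which include the genes of the hindbrain, were at 0 in both libraries, with 4 and 2 counts in all. Among groups 4 to 8, 10 of 15 were at 0, with 3 and 3 counts, and among groups 9 to 13, the genes of the posterior trunk, 14 of 16 were at 0, with 4 and 0 counts. The exact Poisson intervals of these sums overlapped in each library, so no order along the clusters was resolved at this depth.

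The authors also deposited estimated counts from another quantification, made directly from the reads and here called the second. It gave the Hox genes more reads, 71.0 in replicate 1 and 75.6 in replicate 2, or 2.33 ± 0.210 CPM (SD, n = 2). That was 9.17 times the level of the first quantification in CPM. In TPM, which is scaled differently in the quantifications, the sums were 2.54 and 2.83. Still 20 of 39 members (51.3%) had 0 estimated counts in both libraries, against 16.3% of the protein-coding genes with a transcript there, and none reached 1 TPM in both, against 62.2% of those genes. Counts were present in 13 members in replicate 1 and in 17 in replicate 2, of which 11 had them in both.

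Hoxb1, which gives the fourth hindbrain segment its identity, was the highest, with 18 and 21.5 estimated counts (0.607 and 0.763 TPM), while its expected counts were 0 in both libraries. Hoxd11, a gene of the forearm, had 14.7 and 8.88 estimated counts, and Hoxd9, a gene of the lumbar region and limb, 9.73 and 5.09. Both also had 0 expected counts. Hoxc9 had 9.32 and 12.9 estimated counts, against 2 and 0 expected counts. For each of these 4 genes the mean counts of the quantifications differed by more than the estimates of the libraries did.

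The remaining members had at most 5 estimated counts in a library. In replicates 1 and 2, Hoxa13 had 4 and 3, Hoxc4, a neck gene, 1 and 5, Hoxb4 1 and 4, and Hoxd1 4 and 1, as in the first quantification. Hoxb9, which patterns the rib cage, had 2.27 and 2.02, Hoxb3, a hindbrain gene, 1.91 and 2.03, and Hoxa7 2.00 and 1. These genes had reads in both libraries. Hoxc13 with 2 and Hoxb7 with 1 had reads in replicate 1 only. Reads in replicate 2 only were given to Hoxc8, a gene of the forelimb motor pools, with 3, to Hoxd8 with 2, to Hoxa3, a gene of thymus and parathyroid development, with 1.10, and to Hoxa5, Hoxb2 and Hoxd4 with 1 each.

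**Figure D2:**
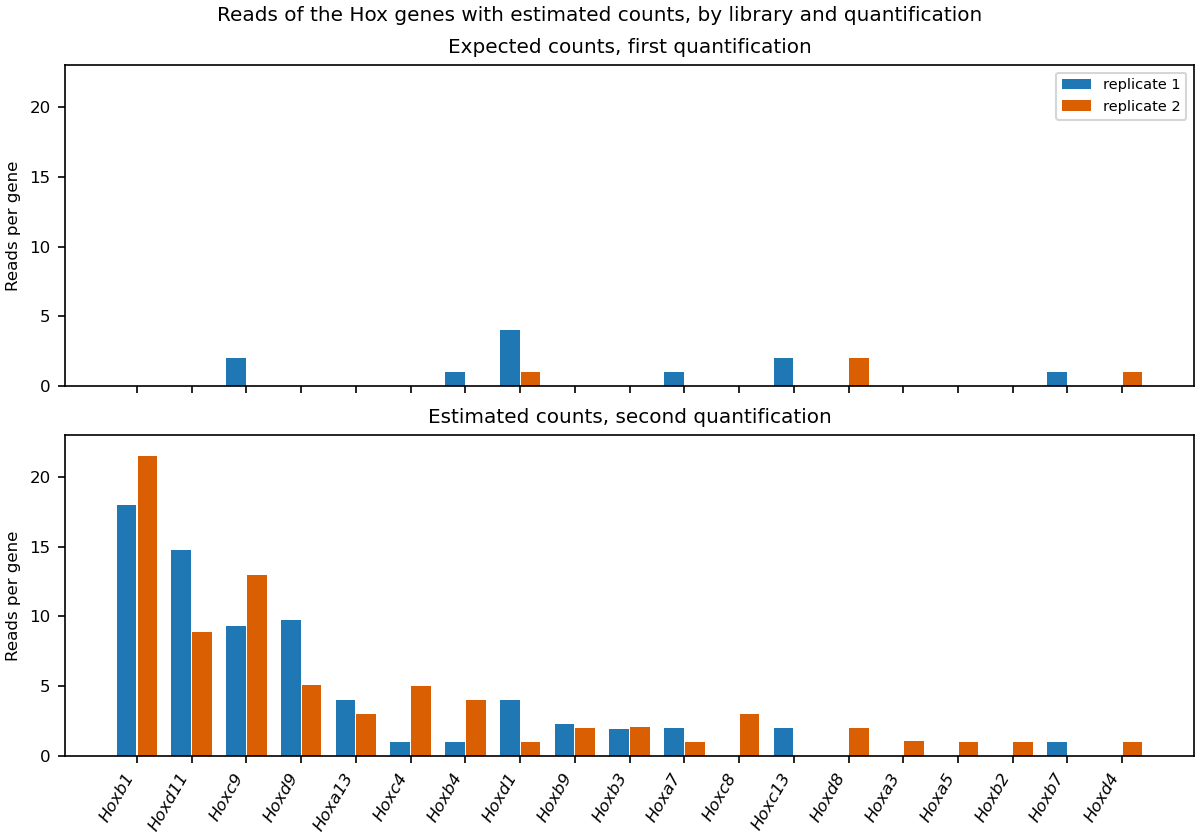
Reads (vertical axis) of the 19 Hox genes with estimated counts, ordered by their mean estimated count. Panels give expected counts of the first quantification (top) and estimated counts of the second (bottom), with 1 bar for each of replicates 1 (blue) and 2 (orange). The top bars reach at most 4 counts, for Hoxd1, while the bottom bars reach 18 and 21.5 counts for Hoxb1.

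By both quantifications 19 members were at 0 in both libraries. They were Hoxa2, Hoxa4, Hoxa6, Hoxa9, Hoxa10 and Hoxa11 in the Hoxa cluster, Hoxb5, Hoxb6, Hoxb8 and Hoxb13 in the Hoxb cluster, Hoxc5, Hoxc6, Hoxc10, Hoxc11 and Hoxc12 in the Hoxc cluster, and Hoxd3, Hoxd10, Hoxd12 and Hoxd13 in the Hoxd cluster. The set runs from Hoxa2, a hindbrain and branchial arch gene, to Hoxd13.

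Of the 30 members without expected counts, 11 had estimated counts, against 25.7% of protein-coding genes without expected counts. A mean of 5 or more estimated counts was found in 3 of the 30 (Hoxb1, Hoxd11 and Hoxd9), against 12.1% of those genes. The second share, 10% of the members, was close to that background.

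Some Hox transcripts, with and without estimated counts, held stretches shared with other genes. Of 87 Hox transcripts in GENCODE release M21, 28 shared at least 1 stretch of 31 bases with a transcript of a gene outside the clusters, on either strand. The share among transcripts of other genes was not counted, so the numbers of shared stretches given here have no background. These 28 transcripts held 66.0 of the 71.0 estimated counts in replicate 1 (93.0%) and 70.6 of the 75.6 in replicate 2 (93.4%). The 4 highest, Hoxb1-201, Hoxd11-201, Hoxc9-201 and Hoxd9-201, held 73.0% and 64.1% of all. Of the 11 members seen only in the second quantification, 9 had such a transcript, the exceptions being Hoxa5 and Hoxb2. It was 6 of 9 for members with expected counts, and 3 of 19 (Hoxb5, Hoxb6 and Hoxc6) for members at 0 in both quantifications.

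These 3 shared stretches, from GENCODE transcripts and outside untranslated regions, are shown because they are the parts of Hox RNA that also occur in other genes.
Hoxd11-201: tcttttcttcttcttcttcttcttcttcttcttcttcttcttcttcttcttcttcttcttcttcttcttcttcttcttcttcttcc
Hoxa3-203: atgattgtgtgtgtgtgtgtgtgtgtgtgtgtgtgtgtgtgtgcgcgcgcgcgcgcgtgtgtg
Hoxa13-201: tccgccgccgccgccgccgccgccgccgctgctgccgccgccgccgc
The Hoxd11 stretch is 86 bases, mostly TTC repeat, in a non-coding transcript and shared words with 128 genes outside the clusters. The Hoxa3 stretch, 63 bases of mainly TG repeat in a transcript with a retained intron, shared words with 2733 genes. The Hoxa13 stretch, 47 bases of mainly CCG repeat shared with 10 genes, lies in coding sequence. Elsewhere, Hoxc9-201 held a CT repeat of 65 bases and shared words with 1071 genes, Hoxb4-201 a TTA repeat of 53 bases with 75 genes, Hoxd9-201 a TTTG repeat of 23 bases with 20 genes and Hoxb1-201 an AAAAC repeat of 19 bases with 5 genes.

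The number of genes sharing a stretch did not order the counts. A Hoxb6 transcript with a GA repeat of 58 bases shared words with 1057 genes and had 0 counts by both quantifications, while Hoxb1-201, with 5 genes, had the most. Hoxd1, Hoxd8, Hoxb7, Hoxa5 and Hoxb2 had counts and no stretch shared with a gene outside the clusters, although they shared stretches with genes inside them. Repeats of at least 20 bases, with units of 1 to 6 bases, were present in 16 of 39 members (41.0%), in 9 of the 11 seen only in the second quantification, and in 3 of the 19 at 0 in both, against 32.9% of all protein-coding genes. Hoxb1, with the most estimated counts, was not among these 9, as its longest repeat was 19 bases. Among protein-coding genes without expected counts, 56.8% of those with a mean of 5 or more estimated counts had such a repeat, and 5.67% of those with 0 estimated counts. The longest transcripts of the first of these sets had a median of 3998.5 bases and those of the last 1240 bases, so the sets differed in length too. The part of the repeats in the estimated counts was not tested.

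**Figure D3:**
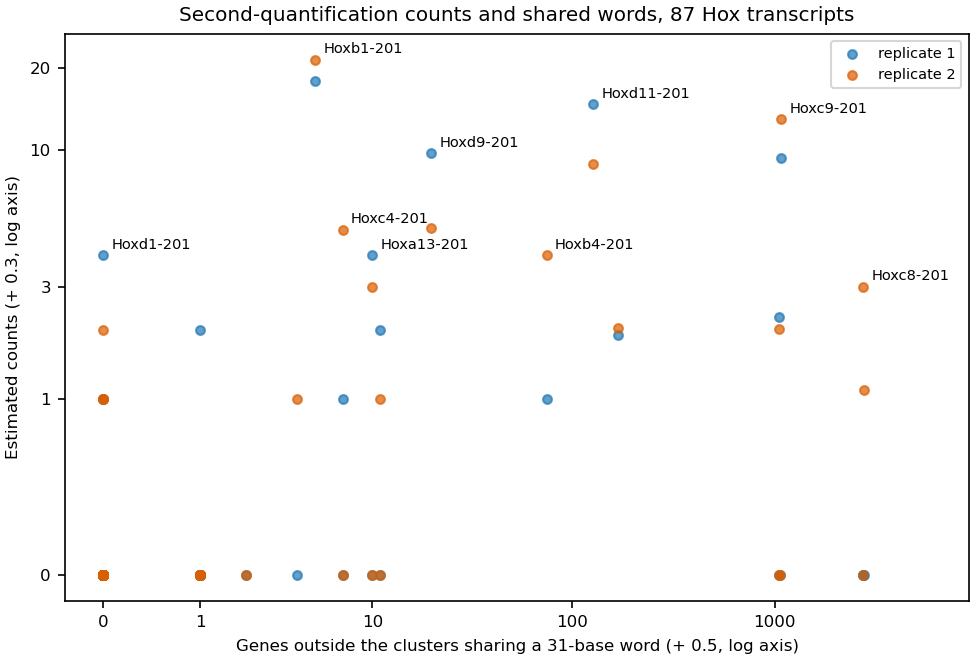
Estimated counts of the second quantification (vertical axis, + 0.3, log scale) for 87 Hox transcripts against the number of genes outside the clusters that share a 31-base word with them (horizontal axis, + 0.5, log scale), in replicates 1 (blue) and 2 (orange), with transcripts of at least 2.5 counts named. Hoxb1-201, Hoxd11-201, Hoxc9-201 and Hoxd9-201 lie highest, between 5.09 and 21.5 counts, and all 4 share words with other genes.

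The other genes inside the clusters had few reads. Of 46 such genes, 43 had 0 expected counts in both libraries. They comprised 3 protein-coding genes, all at 0, and 43 genes of other types, of which 40 were at 0, against 69.2% of all genes of those types in the annotation. With the 16 misc_RNA and 7 microRNA genes left out it was 17 of 20, against 67.1%. Haglr, a long non-coding RNA gene that starts beside Hoxd1 on the opposite strand, had 4 and 1 counts (0.19 and 0.05 TPM) in replicates 1 and 2, the same numbers as Hoxd1. The annotated bodies do not overlap, since Haglr lies between 74748422 and 74762896 and Hoxd1 starts at 74762980 of chromosome 2. Hotairm1, a non-coding gene of the Hoxa cluster, had 1 and 1 counts, and the pseudogene Gm11539 had 1.14 and 0. Hotair, a non-coding RNA of the Hoxc cluster studied for its link to Polycomb complexes, had 0 in both. In the second quantification Gm53, a non-coding gene of the Hoxb cluster, had 6.12 and 11.2 estimated counts. There Haglr had 5 and 1, the antisense genes Hoxb3os and Hoxaas3 had 3 and 4, and 2 and 2, and Gm11539 had 0 and 1.14. Whether the counting used the strand of the reads is not given in the sources used here, so reads of Hox genes and of overlapping antisense genes cannot be told apart.

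The clusters also hold microRNA genes, whose mature 5p forms are shown with the seed (bases 2 to 8) in capitals, from RefSeq (GRCm38.p6), because the pairs share a seed between clusters.
miR-10a-5p: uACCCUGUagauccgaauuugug
miR-10b-5p: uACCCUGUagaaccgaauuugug
miR-196a-5p: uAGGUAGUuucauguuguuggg
miR-196b-5p: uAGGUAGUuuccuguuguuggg
The genes of miR-10a and miR-10b lie in the Hoxb and Hoxd clusters, and those of miR-196a and miR-196b in the Hoxb and Hoxc clusters and in the Hoxa cluster. These loci and that of miR-615 in the Hoxc cluster, 6 in all, had 0 expected counts in both libraries. Of all genes that are not protein-coding, 69.2% were at 0 in both. The share among microRNA genes alone was not counted, so these zeros cannot be called particular to the clusters. The libraries were made from total RNA, and whether RNAs as short as mature microRNAs were kept is not given in the sources used here.

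Most protein-coding genes next to the clusters were expressed. Of the 24 protein-coding genes nearest to the clusters, 3 on each side, 19 were detected, meaning at least 1 TPM in each library, and the median level of the 24 was 21.1 and 19.7 TPM in replicates 1 and 2. The 5 others were nearly or fully unread. Evx1 and Evx2, homeobox genes related to Drosophila even-skipped, 52.6 kb beyond Hoxa13 and 8.75 kb beyond Hoxd13, had 0 counts in both libraries, as did Calcoco2, an autophagy receptor gene. Ttll6, a tubulin-modifying enzyme gene, had 0.11 and 0.12 TPM and the adaptor gene Skap1 0.24 and 0.34 TPM, on either side of the Hoxb cluster.

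The nearest detected gene was Mtx2, a mitochondrial import gene 60.7 kb beyond Hoxd1, at 20.4 and 18.2 TPM in replicates 1 and 2. On the other side of that cluster, past Evx2, the endoplasmic reticulum gene Lnpk was at 27.1 and 22.9 TPM. Beyond them lay Hnrnpa3, encoding an RNA-binding protein, at 132 and 132 TPM, the stress response gene Nfe2l2 at 4.55 and 5.07 TPM, and Atp5g3 at 223 and 211 TPM. Hoxd genes themselves were at 0.10 TPM or less in the first quantification.

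Some flanking genes are paralogs of each other, as the clusters are. Cbx3, Cbx1 and Cbx5, which encode the heterochromatin proteins of the HP1 family, flank the Hoxa, Hoxb and Hoxc clusters and had 59.3 and 55.8, 22.0 and 21.2, and 75.1 and 76.7 TPM. Atp5g1 and Atp5g3, encoding the same subunit of the ATP synthase beside the Hoxb and Hoxd clusters, had 180 and 178 TPM and 223 and 211 TPM. The third copy, Atp5g2 beside the Hoxc cluster, had 100.8 and 40.3 expected counts (6.87 and 2.86 TPM) but 988 and 924 estimated counts. Its expected counts were not whole, a sign of reads divided among genes, so its level is uncertain. Expected counts of Atp5g1, Cbx3, Hnrnpa1 and Hnrnpa3 were not whole either. For Atp5g1 they were 2452 and 2300 in replicates 1 and 2, against 1874 and 1889 estimated counts.

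Levels were close between the libraries for most of the other flanking genes. At the Hoxa cluster the sorting nexin gene Snx10 had 42.3 and 40.8 TPM, the adaptor gene Skap2 6.75 and 6.53 TPM, the enzyme gene Hibadh 19.4 and 18.6 TPM and the autophagy adaptor gene Tax1bp1 51.4 and 45.7 TPM. At the Hoxb cluster Snx11 had 21.8 and 20.5 TPM. At the Hoxc cluster Hnrnpa1 had 109 and 104 TPM, Calcoco1 35.9 and 34.0 TPM, the transcription factor gene Atf7 16.2 and 18.8 TPM and the DNA repair gene Smug1 9.02 and 6.67 TPM.

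**Figure D4:**
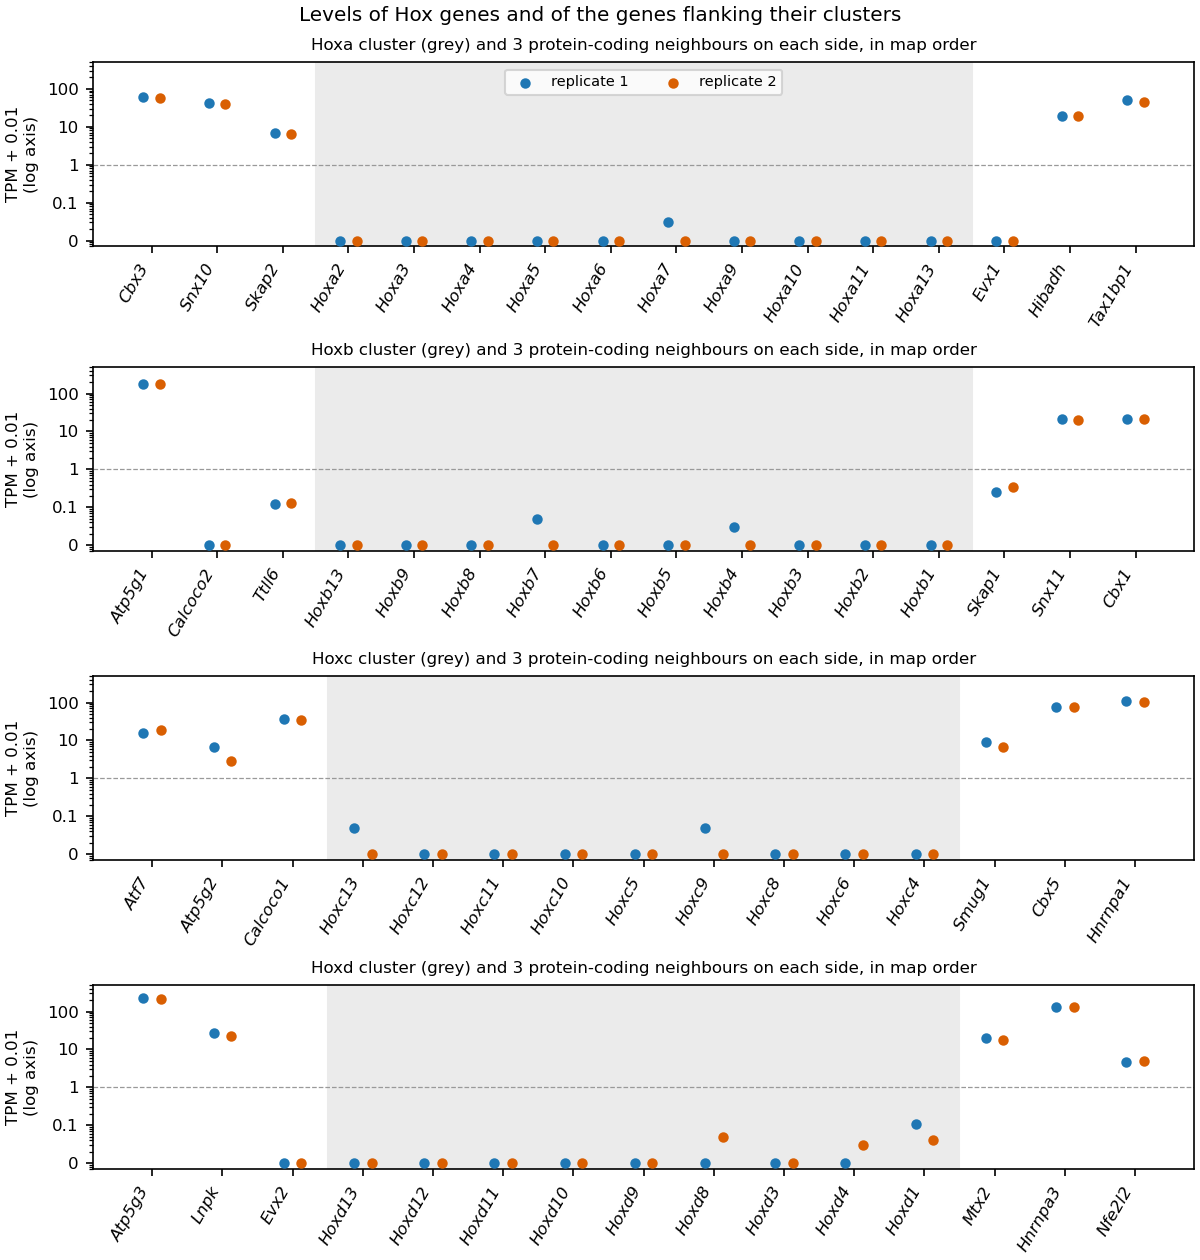
Levels (TPM + 0.01, log axis) of Hox genes of each cluster (grey area) and of 3 protein-coding genes on each side, in map order, in replicates 1 (blue) and 2 (orange), with a dashed line at 1 TPM. The Hox genes shown lie at or under 0.10 TPM, while 19 of 24 neighbours lie above 1 TPM and Evx1, Evx2 and Calcoco2 lie at 0.

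A list of ParaHox and other Antennapedia-class homeobox genes outside the clusters was low as well. It does not describe the whole class, since further members were placed in the list of forebrain homeobox genes. Of these, named after their values were seen, Emx1, Emx2, Dlx1, Dlx2, Dlx5 and Dlx6 were detected and Nkx2-1 was not. Of the 12 listed genes, none was detected and 4 had 0 counts in both libraries (Evx1, Evx2, the motor neuron gene Mnx1 and the pancreas gene Pdx1). The highest were Meox1, a somite gene, at 0.20 and 0.25 TPM, the ventral forebrain gene Gsx1 at 0.23 and 0.16 TPM, and the midbrain-hindbrain gene En2 at 0.10 and 0.27 TPM. Together these 12 genes had 34 and 51 counts in replicates 1 and 2, compared with 11 and 5 for the 39 Hox genes.

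Forebrain homeobox genes were present. The list had 22 of 26 genes detected, at medians of 6.27 and 5.38 TPM, compared with medians of 0 for the Hox genes. It was led by the zinc finger homeobox gene Zeb2 at 161 and 143 TPM, Prox1 at 37.8 and 42.0 TPM and the cortical patterning gene Lhx2 at 37.9 and 38.9 TPM. Emx2, required for hippocampal growth and named here after its values were seen, had 11.6 and 9.49 TPM. The lowest were Six3, an anterior forebrain gene, at 0.05 and 0.23 TPM and Lhx5 at 0.03 and 0.05 TPM. Promoters held a median of 14.5 CG dinucleotides in the Hox genes and of 16, over 35 promoters, in the forebrain homeobox genes.

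The cofactors with which Hox proteins bind DNA were transcribed without them. Of 11 TALE genes 8 were detected, at medians of 6.26 and 7.77 TPM. Pbx2 had 25.6 and 25.5 TPM and Pknox2 13.1 and 18.4 TPM, while the related repressor genes Tgif1, at 0.77 and 0.55 TPM, and Tgif2, at 0.54 and 0.61 TPM, were lowest.

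Genes of the machinery that keeps Hox clusters off or on were expressed side by side. Polycomb genes were detected in 23 of 24 cases, at medians of 16.9 and 16.8 TPM, beside 3.10 and 3.32 TPM for all protein-coding genes. Cbx6, a reader of the Polycomb mark, had 134 and 142 TPM, and the histone-binding genes Rbbp7 and Rbbp4 65.7 and 65.3 TPM and 49.2 and 50.7 TPM. The lowest were the subunit genes Cbx2 at 1.75 and 1.86 TPM and Phf19 at 0.54 and 0.62 TPM. Of the alternative methyltransferase genes, named after their values were seen, Ezh1 had 26.4 and 27.9 TPM and Ezh2, typical of dividing cells, 6.97 and 7.09 TPM.

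All 12 genes of the trithorax group and other activators were detected, at medians of 22.6 and 22.2 TPM. Psip1, a chromatin-binding partner of the MLL methyltransferase, had 86.2 and 85.3 TPM, the MLL complex gene Hcfc1 28.6 and 27.4 TPM and Rbbp5 27.6 and 27.0 TPM. The lowest were the demethylase gene Kdm6b at 12.8 and 13.4 TPM and Wdr5 at 11.1 and 10.53 TPM. These are levels of RNA, and marks or proteins at the clusters were not measured.

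Of 21 genes that act upstream of Hox genes in the embryo, 12 (57.1%) were detected, close to the 57.6% of all protein-coding genes. Their medians were 1.41 and 3.09 TPM, beside 3.10 and 3.32 TPM for all protein-coding genes. Cdx1, Cdx2 and Cdx4, homeobox genes that switch on trunk Hox genes, had 0 counts in both libraries. Parts of the retinoic acid pathway, which activates Hox genes in the hindbrain, were present, led by the receptor genes Rxrb at 31.7 and 30.1 TPM and Rxra at 10.1 and 10.4 TPM and the enzyme gene Aldh1a1 at 25.3 and 23.4 TPM.

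**Figure D5:**
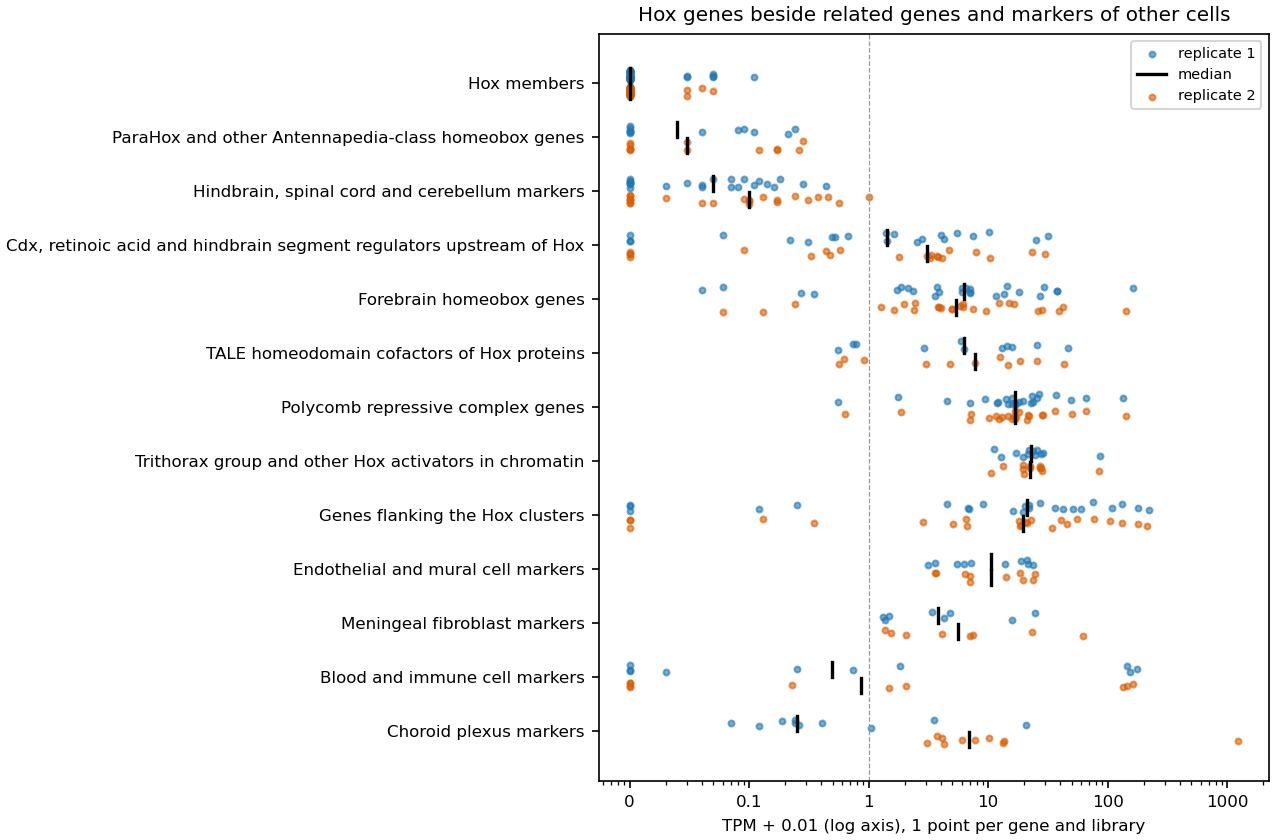
Levels (TPM + 0.01, log axis) of the Hox genes and of 12 other gene sets, with 1 point per gene and library for replicates 1 (blue) and 2 (orange), a black tick at each set's median and a dashed line at 1 TPM. Hox genes lie at or under 0.10 TPM, ParaHox genes and hindbrain markers at or under 1 TPM, and forebrain homeobox, TALE, Polycomb and trithorax genes mostly above it.

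Markers of brain regions further back were low, though most had reads. Of 23 markers of hindbrain, spinal cord and cerebellum none was detected in both libraries, while 57.6% of all protein-coding genes were. The 5 at 0 in both, among them Atoh1, Barhl1, Fev and Lbx1, were 21.7% of the list, close to the 21.3% of all protein-coding genes. The list summed to 1.76 TPM (109 expected counts) in replicate 1 and 3.77 TPM (293 expected counts) in replicate 2. Pcp2, a Purkinje cell gene, was highest at 0.43 and 1.00 TPM, before the granule cell genes Cbln3 at 0.15 and 0.55 TPM and Gabra6 at 0.11 and 0.45 TPM. Hox genes had 11 and 5 expected counts in these libraries, with overlapping intervals, and 71.0 and 75.6 estimated counts.

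Replicate 2 also held far more RNA of the choroid plexus, the tissue that secretes cerebrospinal fluid. The 10 choroid plexus markers summed to 26.8 TPM in replicate 1 and 1303 TPM in replicate 2, led by the thyroid hormone carrier gene Ttr at 20.8 and 1237 TPM, Kl at 3.48 and 13.3 TPM and Sostdc1 at 1.04 and 13.5 TPM, with Aqp1 at 0.18 and 3.74 TPM and F5 at 0.23 and 3.08 TPM lowest. Of these 10 markers 3 (Ttr, Kl and Sostdc1) were detected in both libraries. Among forebrain homeobox genes, Otx2, which the choroid plexus also expresses and which was named after its values were seen, had 0.34 and 3.98 TPM.

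The 8 meningeal fibroblast markers were all detected and summed to 57.1 and 109 TPM in replicates 1 and 2, with Igf2 at 24.7 and 62.5 TPM, Dcn at 15.8 and 23.3 TPM and Col1a1 at 4.82 and 7.08 TPM highest, and Lum at 1.37 and 1.52 TPM and Foxc1 at 1.31 and 1.36 TPM lowest. Blood and immune markers summed to 477 and 442 TPM, of which the hemoglobin genes Hbb-bs (176 and 161 TPM), Hba-a2 (145 and 144 TPM) and Hba-a1 (154 and 134 TPM), near-identical in part and so uncertain singly, made up most, while Cd3e and S100a8 were at 0. Endothelial and mural markers, all 10 detected, summed to 125 and 128 TPM, with Ly6c1 at 23.7 and 23.7 TPM, Vtn at 21.7 and 24.6 TPM and Rgs5 at 21.1 and 19.5 TPM highest, and Kdr at 3.55 and 3.68 TPM and Tek at 3.15 and 3.55 TPM lowest. In the blood and immune list 4 of 10 genes were detected, the hemoglobin genes and Alas2, while the immune cell gene Ptprc had 0.73 and 1.48 TPM. RNA of meningeal fibroblast, red cell, endothelial and mural markers was thus present. The part of such cells in the few Hox reads was not tested.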

How the data were processed

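RNA was measured in 2 libraries of 1 group. Per the file headers, the authors deposited expected counts, in which a read matching several transcripts is divided, and TPM, for genes and transcripts on mm10 with GENCODE M21. They also deposited estimated counts and TPM of transcripts from another quantification, here summed per gene, and 86 genes had no transcript there. The notes deposited beside the tables derive the first quantification from a transcriptome alignment and the second from the reads. Not given in the sources used here are the aligner, the quantification tools, their versions and the use of strand.

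All 55536 gene identifiers matched GENCODE M21. Spike-ins took 0.445% and 0.380% of the counts in replicates 1 and 2, and 26248 entries named by a number took 1.23e-05% and 1.62e-05%. Both were left out of CPM. Protein-coding genes took 43.9% and 42.4% of TPM in the first quantification and 78.3% and 77.6% in the second, so TPM is compared only within a quantification. The 95% Poisson intervals are exact, and a count of 0 was given a floor of 3 counts. Detected means at least 1 TPM in both libraries.

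The members, gene lists and alternatives were chosen with earlier results of these data known. All members enter the counts and sums, and those with a count by either quantification are named, except that some genes are not reported singly here. In each list the 3 highest and 2 lowest members by mean TPM are named, and likewise every flanking gene and every other cluster gene with at least 10 counts in a library. Other cluster genes with counts were named after their values were seen. Python 3.11.15 with pandas 2.3.3, numpy 2.4.6, scipy 1.17.1 and matplotlib 3.10.9 was used. Scaling by edgeR 4.0.16 (TMM) and DESeq2 1.42.0 (size factors) on rounded expected counts, in R 4.3.3, served as alternatives. The counting steps were tested on simulated data.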

Additional observations from a re-analysis of the deposited data

How the results depend on the processing

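Single Hox genes stayed under the detection level of 1 TPM in each setting tried. Members at 0 in both libraries numbered 30, and 38, all but Hoxd1, were under 3 counts and 39 under 10. The second quantification left 20 at 0, and leaving out 1 replicate at a time gave 33 to 35. In the first quantification 0 members reached 1 TPM, 0.5 TPM or 0.1 TPM in both libraries, and 0 reached 1 TPM in the second or with TPM over protein-coding genes only. The limits of 0.5 and 0.1 TPM were not among the settings for the second quantification. There Hoxb1 was above 0.5 TPM in both libraries, and Hoxb3, Hoxc9, Hoxd9, Hoxd11 and Hoxa13 were above 0.1 TPM in both. Summed Hox counts were 0.254 CPM with TMM and 0.255 CPM with DESeq2 size factors, and 0.167 to 0.341 CPM with 1 replicate left out.

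The second quantification moved the sums most, to 2.33 CPM and 2.69 TPM, although TPM is scaled differently there, and the cause was not tested. For 14 of 39 single members the mean count moved by more than the SD of the first quantification, which is 0 for members without expected counts. TPM over protein-coding genes only gave a sum of 0.426 TPM, and leaving out 1 replicate gave 0.11 to 0.26 TPM. Among all protein-coding genes, the percent at 0 in both libraries was 21.3, compared with 16.3 in the second quantification, 27.0 for genes under 3 counts, and 23.36 to 24.05 with 1 replicate left out. Of 203 distinct genes in the lists beside the Hox genes, 129 were detected, 157 at 0.1 TPM, 134 at 0.5 TPM and 134 in the second quantification.

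With a floor of 3 counts, counts of 0 limit levels to 0.0929 and 0.09996 CPM in replicates 1 and 2, and 1 to 4 reads per gene allow no order among members. An alternative over members with a mean count of at least 10 gave no value, because 0 members reached it. No paired analysis was possible because there was a single group.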
